A study of Arabidopsis thaliana with 12 samples.

Results

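AT4G35660 is a protein-coding nuclear gene of Arabidopsis thaliana, measured here by 1 probe, number 2230, out of 3439 on the array. The platform annotation gives this probe 1 gene, as it does for 692 probes, and lists the gene on 0 of the 870 probes with several genes. The tables used here give the locus no name beyond its tag and its clone-based synonym F8D20.170, with 1 RefSeq transcript and 1 protein, so no function is stated for it. The gene was chosen by its intensities in these 12 samples, as the single-gene probe with the most consistent large rise in light. Its light values against its dark values are therefore a description and carry no test.

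Total RNA came from wild-type plants of the Landsberg ecotype. All 12 samples had 500 µM bromoxynil. In the dark group (n = 6) plants were then kept dark for 12 h, and in the light group (n = 6) light was returned for 30 min after such a period. Plants without the herbicide were not analysed here, so the values describe light and darkness under bromoxynil only, and the labels name neither the organ sampled nor separate plants behind the sample numbers 1 to 6. A p-value here thus measures no more than how these samples vary, and that variation may be technical.

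Bromoxynil is a nitrile herbicide that binds photosystem II and stops electrons from leaving it. Light absorbed while that exit is blocked is known to favour reactive oxygen species in the chloroplast. Return of light to dark-adapted plants is also perceived by photoreceptors, and nuclear transcript levels in leaves are known to change within minutes of it. A transcript level after a short light period reflects both synthesis and decay. In a bulk sample, more RNA per cell and more cells that contain it cannot be told apart.

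Light 1 and light 2 were on another scale than the other samples. Their median deposited intensities were 3.88 and 3.90, against 0.559 to 0.654 in the other 10. Their bright end was also shorter: the 99th percentile was 6.10 and 5.82 times the sample median, against 10.8 to 15.5 times in the other 10. For this reason AT4G35660 is given on several scales, and with and without these samples. Samples numbered 1 and 2, 3 and 4, and 5 and 6 were also more alike than others of their group, and their partners are named where that touches a value.

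As deposited, on a linear scale of relative spot intensity, AT4G35660 had 2.15 and 2.07 in dark 1 and 2. It had 1.30 and 1.26 in dark 3 and 4, and 1.13 and 1.17 in dark 5 and 6. Among the dark samples numbers 1 and 2 had the highest values. In light the deposited values were 24.3 and 22.2 in light 1 and 2, 5.69 and 5.80 in light 3 and 4, and 7.20 and 6.70 in light 5 and 6. Every light value was above every dark value, and the lowest light value, that of light 3, was 2.65 times the highest dark value, that of dark 1.

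The scale of light 1 and 2 enters their deposited values, so each sample was next divided by its own median. AT4G35660 then lay at 1.82 to 3.29 times the median in the dark (median of the group 1.95) and at 5.71 to 12.8 times in light (median 9.88). On this scale light 1 and 2 were the lowest of the light group, at 6.27 and 5.71, where they had been the highest as deposited. The groups still did not overlap, and the lowest light value was 1.74 times the highest dark value.

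After quantile normalisation, which gives all samples the same distribution, the normalised log2 intensity ran from 0.63 to 1.57 in the dark, with a median of 0.77. In light it ran from 2.83 to 3.25, with a median of 2.94. The lowest light value was 1.26 log2 units above the highest dark value. The group means were 0.99 ± 0.43 in the dark and 2.98 ± 0.14 in light (SD, n = 6 each).

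The order of spots within a sample needs no scaling. Among the 3381 probes above 0 in at least 1 sample, AT4G35660 ranked 181 and 196 in dark 1 and 2, 535 and 592 in dark 3 and 4, and 684 and 643 in dark 5 and 6, counted from the brightest. In light it ranked 34, 42, 45, 49, 43 and 45 in numbers 1 to 6. The probe was therefore always among the brightest 684 spots in the dark and among the brightest 49 in light. These ranks describe spot brightness, which also depends on the probe, and do not order transcripts by abundance.

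**Figure D1:**
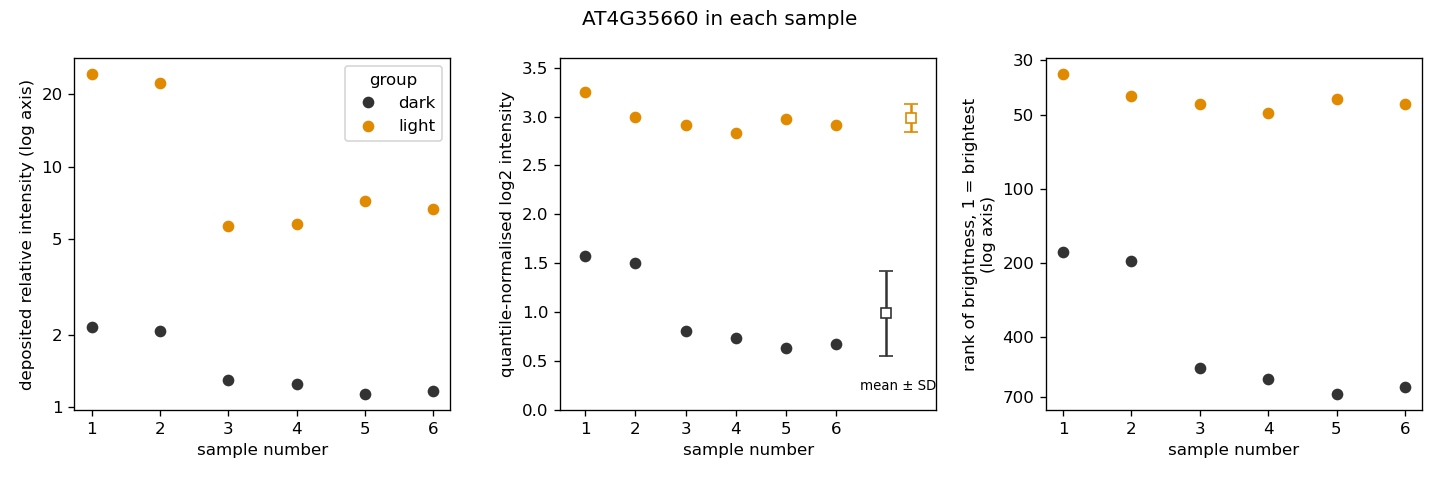
AT4G35660 by sample number in the dark (black) and light (orange) groups, as deposited relative intensity on a log axis (left), quantile-normalised log2 intensity with group mean ± SD as open squares (middle) and rank of brightness among the tested probes on a log axis with the brightest at the top (right). All 6 light values lie above all 6 dark values in each panel. Light 1 and 2 stand out as deposited (24.3 and 22.2) but not in rank (34 and 42 against 43 to 49), and dark 1 and 2 lie above the other dark samples in all panels.

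The change of AT4G35660 was 1.995 ± 0.18 on the normalised log2 scale (limma estimate ± SE, 95% CI 1.60 to 2.39), or 3.99-fold (3.03-fold to 5.24-fold). This interval counts the 6 samples of a group as independent, and with partners averaged the SE was 0.27. AT4G35660 was higher in light in 6 of 6 sample numbers. Over all tested probes, 70 of 3381 (2.07%) were called higher in light by limma at an adjusted p under 0.05, and in 85 (2.51%) all light values were above all dark values. AT4G35660 is in both sets, as its choice required, so nothing is read from its membership.

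By size alone, 18 of the 3381 tested probes had a larger estimated rise, of which 7 were higher in light in all 6 numbers. AT4G35660 ranked 5 by size among the 70 probes called higher and 6 among the 677 tested single-gene probes. The 5 single-gene probes with larger estimates were each listed at 0 in 1 to 10 samples and were not called, with limma adjusted p from 0.237 to 0.402. Probe 2464, which has no annotated gene and was chosen after its values were seen, was close to AT4G35660 in level and change, with a mean of 0.87 in darkness and 3.01 after light on the normalised log2 scale. The next called single-gene probe was AT4G18180. Its normalised log2 intensity was -2.04 to -1.26 in the dark (median -1.57) and -0.60 to 0.33 in light (median -0.07), a change of 1.47 ± 0.17 with no overlap between the groups. AT4G18180 was picked for its rise, so these values carry no test. Both genes were higher in light in every number, but AT4G18180 was lowest in dark 1 where AT4G35660 was highest.

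**Figure D2:**
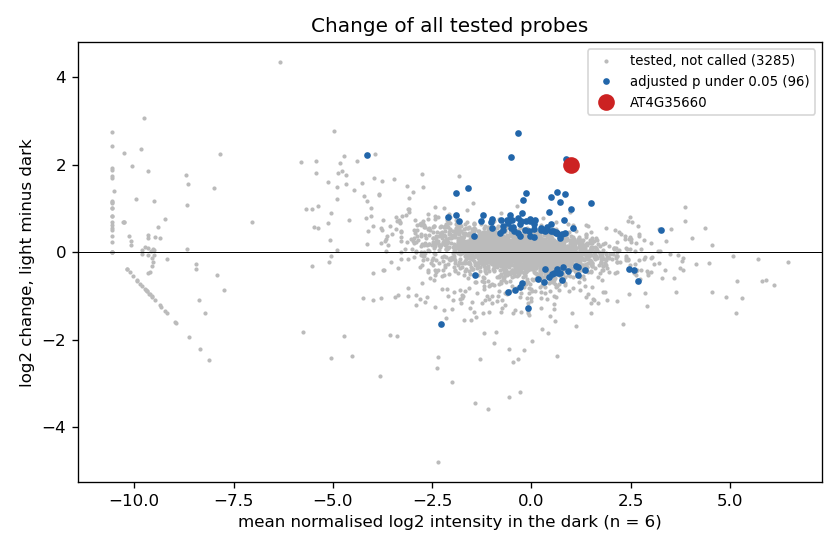
Each point is 1 of the 3381 tested probes, placed by its mean normalised log2 intensity in the dark (horizontal) and its log2 change from dark to light (vertical). The 96 probes past the limma threshold are blue and AT4G35660 is the red point at 0.99 and 1.995. Most of the larger changes on the far left, among the dimmest spots, were not called.

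How many probes were called depended on the treatment of the samples, which sets the background for the gene and not its own change. The 96 calls (70 higher, 26 lower) became 47 higher and 43 lower when samples were centred on the 90th percentile. They became 8 and 1 when centred on the 99th percentile, and 2 and 0 without scaling. When partners entered as a random block (their correlation was 0.669), 16 were called, and with partners averaged 1. The count was 46 without dark 3, 57 without dark 4, 59 without light 5 and 60 without light 6.

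The size of the rise differed between sample numbers. On the normalised log2 scale numbers 1 and 2 changed by 1.68 and 1.495. Numbers 3 and 4 changed by 2.11 and 2.10, and numbers 5 and 6 by 2.34 and 2.24. The smaller change in numbers 1 and 2 joined a higher dark level with a light level at or above that of the other numbers: the mean of dark 1 and 2 was 1.54, against 0.77 for dark 3 and 4 and 0.65 for dark 5 and 6. The corresponding light means were 3.13, 2.88 and 2.94. Changes of all probes were also more widely spread in numbers 1 and 2, with an SD across probes of 1.23 and 1.20, against 0.661 to 0.799 in numbers 3 to 6. Within each number the change of AT4G35660 ranked 81, 101, 28, 19, 29 and 29 among the 3381 probes.

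On linear scales the fold in numbers 1 and 2 depended on how light 1 and 2 were scaled. As deposited the light value was 11.3 and 10.7 times the dark value in numbers 1 and 2, and 4.39, 4.62, 6.35 and 5.73 times in numbers 3 to 6. With each sample divided by its median the ratios were 1.91 and 1.78 in numbers 1 and 2, and 4.92, 5.21, 7.05 and 6.45 in numbers 3 to 6. So numbers 1 and 2 had the highest ratios on the first of these scales and the lowest on the second, while numbers 3 to 6 moved little. With each sample divided by its 99th percentile, near which AT4G35660 lies in light, the ratios were 3.76, 3.65, 4.43, 4.30, 5.47 and 4.81 in numbers 1 to 6. Without numbers 1 and 2 of both groups the normalised log2 change was 2.36 ± 0.06, and without light 1 and 2 alone 2.06 ± 0.21. The SE of 0.06 counts partners as separate samples and so overstates the precision. Averaged over partners, the change was 2.11 in numbers 3 and 4 and 2.29 in numbers 5 and 6.

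**Figure D3:**
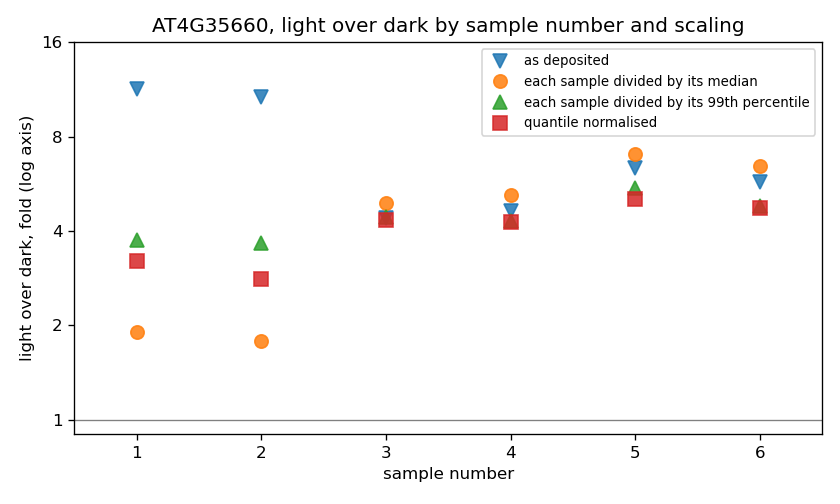
Ratio of the light to the dark value of AT4G35660 in each sample number, on a log axis, for values as deposited, divided by the sample median, divided by the sample's 99th percentile and quantile normalised. Every ratio is above 1. The scales are close in numbers 3 to 6 (4.28 to 7.05) and spread from 1.78 to 11.3 in numbers 1 and 2.

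The spread of AT4G35660 was mostly between partners in the dark and not within them. Partners in the dark differed by at most 0.07 log2 units, while the 3 partner means spanned 0.89. In light the largest difference within partners was 0.25, between light 1 and 2, and the 3 partner means also spanned 0.25. The dark SD of 0.43 was at the 79.4 percentile of all tested probes, where the median SD was 0.24. The light SD of 0.14 was at the 14.5 percentile, with a median over all probes of 0.30. Dark 1 and 2 were both above dark 3 to 6 for 722 of the 3381 probes (21.4%) and both below for 555 (16.4%), so the higher level of AT4G35660 in these 2 samples goes with differences in many probes, and the part of those differences in its dark level was not tested. With the 3 partner means of each group in place of 6 values, the SE of its change was 0.27 in place of 0.18.

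Genes with the most similar pattern were looked for among the other 632 single-gene probes above 0 in every sample. Pearson's r of normalised log2 intensities across the 12 samples was used as the measure, as a description, since partners are not independent and the rise in light itself dominates it. Its median over these genes was 0.02, and 10 genes were above 0.8. The 6 highest were AT2G39100 (r 0.935), AT3G04210 (0.891), AT1G73470 (0.867), AT3G54930 (0.855), AT2G44760 (0.854) and AT5G11550 (0.852). The tables used here give these loci no name beyond clone-based synonyms.

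All 6 were higher in light in 6 of 6 numbers, by less than AT4G35660. AT2G39100 ran from 0.07 to 0.61 in the dark (median 0.36) and from 0.71 to 0.99 in light (median 0.87), without overlap, a change of 0.51 ± 0.11. Like AT4G35660 it was highest of its group in dark 1 and 2 and in light 1 and 2. AT3G04210 had the largest change of the 6, at 1.26 ± 0.20, from 0.21 to 0.75 in the dark (median 0.52) to 1.31 to 2.52 in light (median 1.58). Its light values were highest in light 1 and 2, at 2.13 and 2.52, and its dark values did not set dark 1 and 2 apart. The other 4 differed by 0.34 to 0.64 log2 units between the groups. Since likeness to AT4G35660 across both groups chose these genes, their changes are given without a test. Of all probes, whatever their annotation, the highest r was 0.956.

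Among the least similar were AT2G03390 (r -0.887), AT3G06870 (-0.813) and AGL103 (-0.808), a MADS-box gene of the AGAMOUS-like family. Each was lower in light in 6 of 6 numbers after normalisation. AGL103 ran from 0.62 to 1.02 in the dark (median 0.70) and from -0.02 to 0.22 in light (median 0.18), a change of -0.63 ± 0.09. The changes of AT2G03390 and AT3G06870 were -0.44 ± 0.11 and -0.48 ± 0.13. Without scaling the 3 changes turned to 0.18, 0.29 and 0.48, all below the 0.78 of the median probe on that scale.

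A second measure took the rise out, by correlating deviations from the group means across the 12 samples. Its median over the 632 genes was 0.12, and 21 genes were above 0.8. The highest were AT3G58830 (r 0.913), AT4G30150 (0.913), AT1G01730 (0.897), AT3G32940 (0.871), AT4G07670 (0.869) and AGL103 (0.856). What all of these share with AT4G35660 is a high level in dark 1 and 2: AT3G58830 had 1.45 and 1.37 there against 0.90 to 1.16 in dark 3 to 6, and AT1G01730 had 0.98 and 1.03 against 0.30 to 0.43. AT3G58830, AT4G30150, AT1G01730 and AT3G32940 were, like AT4G35660, also highest of the light group in light 1 and 2. In AT4G07670 and AGL103 this held for light 1 only. The other 5 genes, without AGL103, did not pass the test of light against dark (limma adjusted p 0.279 to 0.909). AGL103 was among the least similar genes on the first measure and among the most similar on the second, since its group means move the other way while dark 1 and 2 are high in both genes. Of the 6 genes of the first measure, AT2G39100 and AT1G73470 also had deviations like those of AT4G35660 (r 0.812 and 0.755). In AT3G54930 and AT5G11550 they were not (r -0.318 and -0.141).

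**Figure D4:**
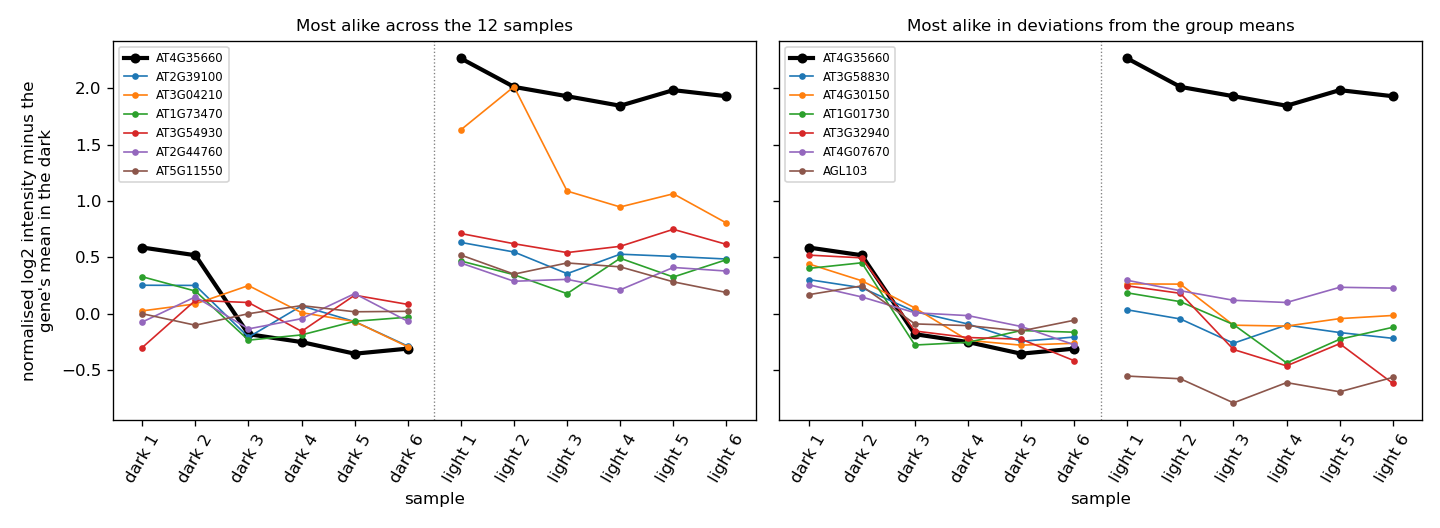
Normalised log2 intensity minus the gene's own mean in the dark, for the 12 samples, with AT4G35660 as the thick black line and the 6 most similar single-gene probes across all samples (left) or in deviations from the group means (right) as thin lines. On the left all genes are higher in light, and AT3G04210 comes nearest in size. On the right the genes are high in dark 1 and 2 as AT4G35660 is, without a rise of its size in light.

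Probe numbers offer another set of neighbours, although the sources used here do not say whether they follow spot positions. Log2 changes of probes with consecutive numbers were correlated across the array (r 0.402 over 2459 pairs, as a description), and this fell to 0.148 at a distance of 4 and 0.072 at 10. Around AT4G35660 the 10 nearest tested numbers had a median change of -0.23, with 9 of 10 below 0. All 5 within 3 numbers of it had changes below 0. AT5G64150 on probe 2227 fell by 1.27 ± 0.23 (limma adjusted p 0.0164). This call was lost with the sample number as a block (adjusted p 0.0686) and with partners as a random block (0.0569). It was also lost without light 1 and 2 alone (0.0539), without scaling (0.429), with 99th percentile centring (0.0768) and with partners averaged (0.735). The call held in other settings, among them without numbers 1 and 2 of both groups (limma adjusted p 0.00989) and with 90th percentile centring (0.00730). Probe 2228 had a change of -0.90, AT1G76450 on probe 2229 -0.90, AT5G06930 on probe 2231 -0.82 and AT5G11010 on probe 2233 -0.23. These 4 did not pass (limma adjusted p 0.0990 to 0.470). Without numbers 1 and 2 the changes of the 5 were smaller on probes 2227, 2228, 2229 and 2231, at -0.75, -0.31, -0.35 and -0.19, and -0.38 on probe 2233. The median over the 10 probes was -0.32 there and -0.43 without light 1 and 2 alone. Set against the median of these 10 probes, the change of AT4G35660 was 2.22 (2.68 without numbers 1 and 2). Probe 2230 was chosen for its large rise, so nothing is read from its distance to these probes. An effect of spot position was not tested.

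The same probes show where light 1 and 2 differ from the other light samples. The mean deposited value of light 1 and 2 was 7.21 times that of light 3 to 6 for the median probe above 0. For AT4G35660 this ratio was 3.67, lower than for most probes (14.0 percentile). For probes 2227, 2228, 2229 and 2231 it was 4.07, 1.54, 1.73 and 2.10, and for the 6 other probes among the 10 it ran from 7.05 to 14.8. A single scale factor thus does not describe light 1 and 2. The low ratio of AT4G35660 is set against probes of all brightness, and the part of brightness in it was not tested. The bright end of light 1 and 2 was shorter. Their 99th percentile was 6.10 and 5.82 times the median, against 12.5 to 15.5 times in light 3 to 6. Relative to the sample's 99th percentile AT4G35660 was higher in light 1 and 2, at 1.03 and 0.98, than in light 3 to 6, at 0.76 to 0.83.

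**Figure D5:**
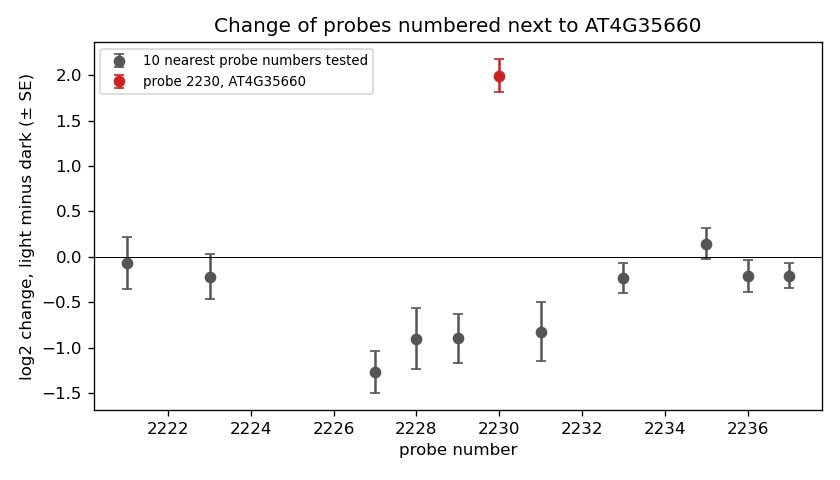
Log2 change from dark to light with its SE for probe 2230 (AT4G35660, red) and the 10 nearest tested probe numbers (grey). Probe 2230 is at 1.995, and the other 10 lie between -1.27 and 0.15.

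Neighbours on the chromosome could not be followed by name. Of the 25 annotated genes on each side of AT4G35660 in the RefSeq order, 0 were on a single-gene probe. At least 1 of these 50 genes was on 5 probes that carry 2 or 3 genes. The changes of those 5 probes were -0.37 to 0.33, and 0 passed (limma adjusted p 0.436 to 0.811), where 96 of all tested probes (2.84%) did. An unadjusted p under 0.05 was found for 0 of the 5 and for 639 of all tested probes (18.9%). Without numbers 1 and 2, 1 of them, probe 1862, passed with the opposite sign to its -0.37, at 0.56 (limma adjusted p 0.0252).

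Of the gene lists, few members could be measured singly. CCL, a CCR-like gene known for clock-regulated transcript levels, was the only measured member of 24 early light response loci, and its change was -0.07 (95% CI -0.37 to 0.23, limma adjusted p 0.821). AT3G52960 was the only measured one of 21 oxidative stress loci, with a change of -0.19 (95% CI -0.57 to 0.19). Of 11 dark-induced and 4 nitrilase loci 0 were measured. Of 8 green tissue loci 6 were measured, for photosystem, antenna and carbon fixation proteins. With limma 0 of the 6 passed, against 2.84% of all tested probes, and 4 had an unadjusted p under 0.05, against 18.9%. Their changes ran from -0.91 to 0.35 with a median of -0.06, against 0.02 over all tested probes. Of the 4, 2 were lower in light in 6 of 6 numbers and 2 higher in 6 of 6, so the median joins opposite directions. Their spots were on average at the 28.8 to 99.3 percentile of brightness. Of the 6 markers of non-green tissue and 2 of seed 0 were measured.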

How the data were processed

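Relative spot intensities on a linear scale were used as deposited by the authors, 1 channel a sample. How they were scanned, background-corrected and scaled by the authors, and the genome build, is not stated in the labels or files used here. The intensity values are 0 or above, and the brightest spot is 100 in 10 of 12 samples. Zeros were set to the sample's lowest positive value, and log2 was taken. Because sample medians differed 6.98 times, above the limit of 1.25, samples were quantile normalised. Of 3439 probes, 58 at 0 in every sample were left out, as decided after the data were seen. The comparison of the groups used limma 3.58.1 under R 4.3.3 (lmFit, eBayes, two-sided, Benjamini-Hochberg over 3381 probes), with no covariate. The fit was tried on simulated data with independent samples, which leave out the likeness of partners found here. The number of arrays limits the precision. The gene, the lists and the tests were chosen with earlier results of these data known.

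Named were AT4G35660, the next called single-gene rise, the 6 most and 3 least similar single-gene probes, the 6 most similar in deviations, neighbours within 25 genes and list members. The part of that rule on genes with the same product description could not be applied, because the tables used hold none. Probes beside 2230 in number were added after values were seen. Of 692 single genes, 690 matched the RefSeq table of TAIR10.1, used for names and gene order only. Deviations from group means correlated between samples of the same number at 0.337 to 0.491 across probes, so the numbers pair the samples. The main fit leaves this pairing out, and only an alternative fit takes the number as a block. Alternatives were no scaling, centring on the median, a dim-probe filter, a pseudocount, the number as a block, partners as a random block or averaged, eBayes with trend and robust, and leaving out samples. Centring on the 90th and 99th percentiles, leaving out numbers 1 and 2, leaving out probes with a 0, averaged partners with a block and subtracting neighbouring probe numbers were chosen after seeing the data.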

Additional observations from a re-analysis of the deposited data

How the results depend on the processing

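AT4G35660 was higher in light under all 28 alternatives. Its log2 change moved by less than the pooled SD of its groups (0.322) in 25 of them, and leaving out each sample gave 1.91 to 2.10. Without scaling it was 2.74, where the median of all probes was 0.78. Without numbers 1 and 2 it was 2.36, a setting chosen after seeing the data. As a rank within the sample the difference was 12.7 percentile points. With the sample number as a replicate block it was 1.995 ± 0.13, and 116 probes were called against 96, with 66 in both. That fit counts partners as separate samples and so overstates the precision. With partners averaged and a block the SE was 0.19. The block by sample number ended the call of AT5G64150 (limma adjusted p 0.0686). It also moved AT2G44760 and AT3G06870 across the threshold, in opposite directions, and changed no other call of the genes named. AT2G44760 and AT3G06870 were chosen by their likeness to AT4G35660 across both groups, so nothing is read from their calls. The count of called probes was 2 without scaling, 16 with partners as a random block, 1 with partners averaged with or without a replicate block, 9 with 99th percentile centring, where the median of all probes was 0.17, and 46 to 86 when each sample was left out. It was 98 without light 1 and 2 and 118 without numbers 1 and 2. The cause of these differences was not tested. The lowest r of the 6 similar genes, 0.852, was 0.806 without scaling, 0.772 with median centring, 0.811 without light 1 and 2 and 0.829 to 0.858 when each sample was left out. Of 27 other named genes and probes, the change turned sign in these cases. Without scaling it was 0.18 for AGL103, 0.29 for AT2G03390, 0.48 for AT3G06870, 0.71 for AT1G01730, 0.58 for AT3G32940, 0.68 for AT3G52960, 0.72 for AT3G58830, 0.51 for AT5G11010, 0.42 for CCL, 0.31 for probe 1862 and 0.55 for probe 2012, all below the 0.78 of the median probe. With 99th percentile centring it was 0.10 for AT1G01730, 0.075 for AT3G52960 and 0.12 for AT3G58830. Without light 1 and 2 it was -0.071 for AT4G30150, -0.00085 for probe 1742, 0.46 for probe 1862 and -0.0029 for probe 2026, and without numbers 1 and 2 it was -0.0081 for probe 1742 and 0.56 for probe 1862. AT4G30150 had -0.015 to 0.13 when each sample was left out. Signal over background is unknown, which limits statements on dim probes.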
